A study of Mus musculus with 6 samples.

Results

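The solute carrier (Slc) transporters described here were the 184 protein-coding genes whose symbol starts with Slc, a family number and the letter a, and that reached 1 TPM (transcript abundance corrected for gene length and library size) in at least 3 of 6 libraries. They made up 1.18% of the 15634 genes listed and came from 43 families, and 34 further protein-coding Slc genes were below the TPM rule. RNA was sequenced from mesenchymal stem cells (MSCs, stromal cells that adhere to the dish) grown from bone marrow of wild-type C57BL/6J mice in α-MEM with 15% fetal bovine serum. The TNF group was 3 libraries of cells given TNF-α, an inflammatory cytokine, at 10 ng/mL for 24 h, and the Control group was 3 libraries of the same kind of cells left unstimulated. The comparison asks which transcripts differ in these cells after TNF-α. The labels do not say whether the 3 libraries of a group came from separate cultures or animals, so the p-values measure only the spread between these libraries.

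Solute carriers are membrane proteins that move small molecules and ions across the plasma membrane or the membranes of organelles, either down a gradient or coupled to the gradient of another ion. They are grouped into families by sequence, and a family often, though not always, shares a kind of substrate. Stromal cells of the marrow use them to take in glucose, amino acids, phosphate and metals and to release lactate and nucleosides.

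Library totals ranged from 45629973 to 55149746 counts in TNF and from 54141846 to 77142418 counts in Control. The 11 MSC and stromal markers were all measured, with summed CPM (counts scaled to library size) of 6287 to 6507 in TNF and 9438 to 13073 in Control. Most of that difference lay in Col1a1, at 3938 CPM in TNF and 8204 CPM in Control. Of these markers Cd44, Pdgfra and Lepr rose and Col1a1 and Thy1 fell, and Thy1 lost its call without TNF library 1 or 2 (adjusted p up to 0.0756). Macrophage transcripts were present as well. All 12 macrophage markers were measured, at summed CPM of 1224 to 1265 in TNF and 1091 to 1494 in Control, and 3 of them rose and 6 fell. The rise of Csf1r among these lost its call without Control library 1 or 3 or TNF library 1 (adjusted p up to 0.0971). Mpo, Elane, Ly6g and S100a9 of the granulocyte list were not in the table, while S100a8 of that list rose (0.838 CPM in TNF, 0.220 CPM in Control) and Csf3r was not called (2.07 CPM in TNF, 1.97 CPM in Control). TNF library 2 stood apart in its ribosomal RNA, with 19.4% of counts on 18S rRNA against 1.10% and 3.25% in the other TNF libraries and 1.13% to 3.55% in Control. Its TPM values are lowered by this, so values per library are given below as CPM scaled by the TMM factors, and TPM is used to compare levels between genes. Control library 2 stood apart in its mitochondrial mRNA, at 4.45% of counts against 1.59% to 2.16% in the other libraries. In bulk RNA, fewer cells of a type and less RNA per cell cannot be told apart.

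The rule used TPM, so the levels of the members are a description. The mean TPM over 6 libraries had a median of 15.7 over the members and ran from 0.683 for Slc25a18 to 503 for Slc25a5, the adenine nucleotide carrier ANT2 of the inner mitochondrial membrane. Of the members, 16 lay over 100 TPM and 39 under 5 TPM, and the 10 with the highest level held 40.3% of the members' summed TPM. The most abundant after Slc25a5 were Slc25a4, the related carrier ANT1, at 456 TPM, Slc25a3, the mitochondrial phosphate carrier, at 426 TPM, and Slc48a1, a haem transporter, at 237 TPM. The rule was met in all 6 libraries by 171 members. Slc7a11, Slc25a18 and Slc39a4 reached 1 TPM in TNF libraries only. Slc5a3, Slc8a3, Slc16a4 and Slc22a2 did so in Control libraries only, and these 7 had to differ between the groups. The nearest members inside the rule were Slc29a4, Slc45a3 and Slc16a13, with 1.004, 1.04 and 1.13 TPM as their third-highest value. Close outside it lay Slc2a13 and Slc30a3, at 0.924 and 0.885 TPM.

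In TNF, 51 members (27.7%) were called higher and 26 (14.1%) lower at an adjusted p under 0.05 in edgeR's quasi-likelihood F test, adjusted by Benjamini and Hochberg's method over all 15547 tested genes, and 107 were not called. Over all tested genes 16.0% were called higher and 16.4% lower. At a change of at least 2-fold 13 members (7.07%) were called higher and 10 (5.43%) lower, against 5.81% and 5.22% of all genes. All tested genes include noncoding ones, while the members are protein-coding. Over the 13675 tested protein-coding genes 16.9% were called higher and 17.6% lower, and 5.67% and 5.37% at 2-fold. These counts hold members that met the TPM rule through 1 group alone. Of the 171 members at 1 TPM in all 6 libraries, 46 (26.9%) were called higher and 21 (12.3%) lower, and 10 (5.85%) and 6 (3.51%) at 2-fold. The median log2 fold change of the members, TNF over Control, was 0.08, and that of all tested genes was 0.00. The 3 TNF values and the 3 Control values did not overlap for 106 members (57.6%), and for 56.1% of those 171. This was so for 48.7% of all tested genes and 51.1% of the protein-coding ones. In 6 repeats that each left out 1 library, 35 of the higher and 17 of the lower calls were made every time. Without both libraries numbered 2, 61 members were called higher and 23 lower.

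**Figure D1:**
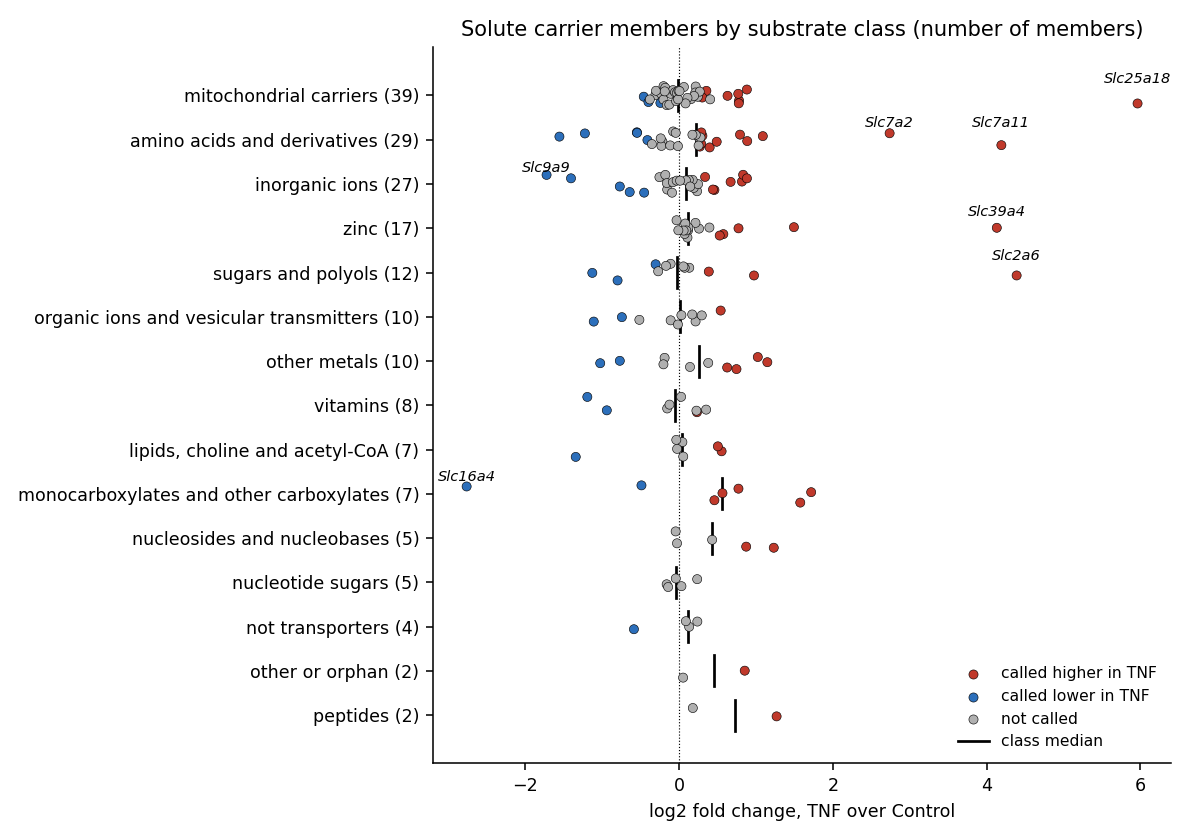
Log2 fold change of each of the 184 members, TNF over Control, in rows by substrate class with the number of members in brackets; red points were called higher, blue points lower and grey points not called, and the bar is the class median. The rises of Slc2a6, Slc7a11 and Slc39a4 lie over 4, and the lowest point is Slc16a4 at -2.76. The fitted value of Slc25a18 rests on 4 Control counts. Slc7a11, Slc39a4 and Slc25a18 met the TPM rule through TNF libraries alone, and Slc16a4 through Control libraries alone.

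Among the 12 carriers of sugars and polyols, 3 (25%) rose and 3 (25%) fell in TNF, with a median log2 fold change of -0.03. Of all tested genes 16.0% were called higher and 16.4% lower. Slc2a6 encodes GLUT6, a hexose transporter found on lysosomes. It had 244, 179 and 221 CPM in TNF libraries 1, 2 and 3, against 10.1, 11 and 9.60 CPM in Control. The lowest TNF library was thus many times above the highest Control library, and the log2 fold change was 4.39 ± 0.14 (SE, adjusted p = 3e-07). Slc2a1, the widespread basal glucose transporter GLUT1, had 92.0, 78.6 and 79.9 CPM in TNF and 42.0, 44.4 and 41.2 CPM in Control. Its groups did not overlap, and its log2 fold change was 0.97 ± 0.09 (adjusted p = 6.48e-05). Slc37a4, the glucose 6-phosphate carrier of the endoplasmic reticulum, rose by less (log2 0.39 ± 0.09).

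The falls in this class were those of Slc37a2, Slc5a3 and Slc2a8. Slc37a2, a sugar phosphate exchanger known from macrophages and osteoclasts, had 17.4, 14.9 and 18.6 CPM in TNF and 34.8, 43.9 and 32.7 CPM in Control (log2 -1.13 ± 0.13, adjusted p = 0.000271). The macrophage markers moved in both directions between these groups, as given above, and so did the 4 osteoclast markers measured. Of these Mmp9 (log2 4.69) and Dcstamp (log2 2.09) rose, and Acp5 was not called. Ctsk fell (44.7 CPM in TNF, 56.6 CPM in Control), and its call was lost without Control library 1 or TNF library 1 or 3 (adjusted p up to 0.0879). The list summed to 84.8 to 91.2 CPM in TNF and 53.6 to 65.5 CPM in Control. The part of either cell type in this fall was not tested. Slc5a3, which brings in myo-inositol with sodium, averaged 4.50 CPM in TNF and 7.82 CPM in Control. Having met the TPM rule through Control libraries alone, Slc5a3 had to differ. Slc2a8, the intracellular hexose transporter GLUT8, averaged 20.8 CPM in TNF and 25.8 CPM in Control. The call of Slc37a4 was lost without Control library 1 or TNF library 1 (adjusted p up to 0.0627), and that of Slc2a8 without any 1 library other than Control library 2 (up to 0.0891). Summed over the class, the level was 396 ± 69.2 TPM in TNF and 218 ± 10.4 TPM in Control (SD, n = 3 each). Of the 5 genes listed for glucose phosphorylation, the hexokinase gene Hk2 and the gene Pfkfb3, whose product makes an activator of glycolysis, rose (60.0 and 58.5 CPM in TNF, 27.3 and 21.3 CPM in Control), and Hk1, Hk3 and Pfkp were not called. The share called higher over all tested genes was 16.0%.

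**Figure D2:**
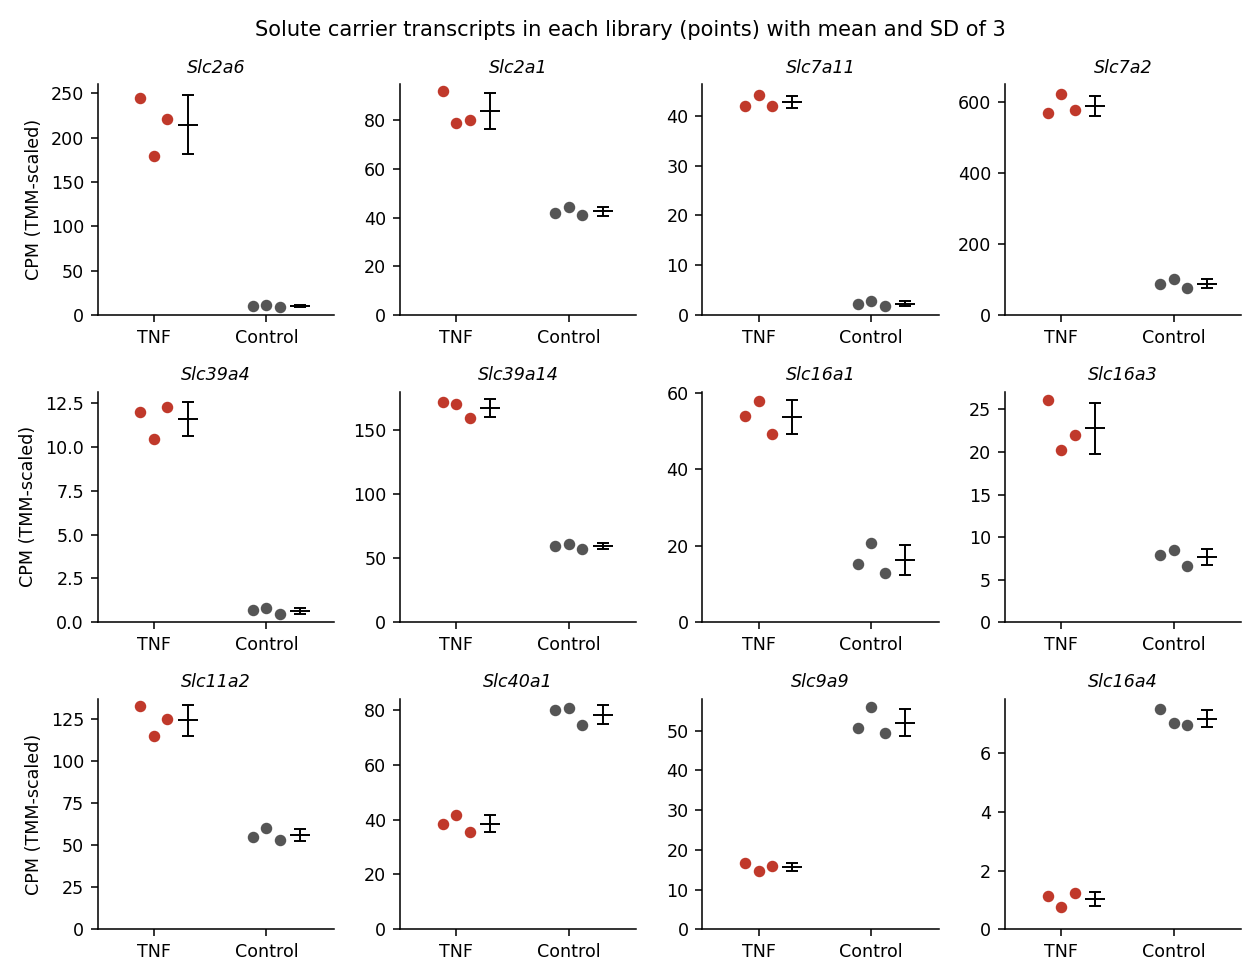
CPM scaled by TMM factors in each library for 12 members, with TNF left and Control right in each panel, points for libraries and bars for the mean and SD of 3. The groups do not overlap in any panel, and Slc2a6 runs from 179 to 244 CPM in TNF.

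The 7 carriers of monocarboxylates and other carboxylates were all called, 5 (71.4%) higher and 2 (28.6%) lower, with a median log2 fold change of 0.56. Of all tested genes 16.0% were called higher and 16.4% lower. Slc16a4, counted among the lower calls, met the TPM rule through Control libraries alone. Slc16a1 encodes MCT1, which moves lactate, pyruvate and ketone bodies together with a proton. Its values were 53.9, 58.0 and 49.3 CPM in TNF, and 15.2, 20.7 and 13.0 CPM in Control. Slc16a3 encodes MCT4, a lactate exporter of glycolytic cells, and had 26.1, 20.2 and 22 CPM in TNF, against 7.88, 8.44 and 6.61 CPM in Control. Both genes stood clear of Control in every TNF library, with log2 fold changes of 1.72 ± 0.16 (adjusted p = 8.09e-05) for Slc16a1 and 1.58 ± 0.13 (adjusted p = 3.79e-05) for Slc16a3.

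Slc16a4, a family member whose substrate is not well known, went the other way, with 1.13, 0.766 and 1.22 CPM in TNF and 7.53, 7.04 and 6.98 CPM in Control. This was the largest fall among the called members (log2 -2.76 ± 0.17, adjusted p = 5.68e-06). Because Slc16a4 met the TPM rule through Control libraries alone, it had to differ between the groups. The remaining calls were those of Slc16a9, Slc16a6 and Slc16a13, which rose by 0.46, 0.77 and 0.56 on the log2 scale, and of Slc16a7 (MCT2), which fell by 0.49. Only Slc16a9 of these 4 kept its call in all 6 repeats. The number of higher calls in the class was 3 without Control library 1 or without TNF library 1, 2 or 3, and the number of lower calls was 1 without Control library 1 or 2 or without any 1 TNF library. Adjusted p reached 0.141 for Slc16a6, 0.172 for Slc16a13 and 0.160 for Slc16a7 in these repeats.

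The 2 genes listed as chaperones of the lactate carriers fell, against 16.4% of all tested genes called lower. Bsg, which brings MCT1 and MCT4 to the cell surface, had 563, 423 and 674 CPM in TNF and 888, 1016 and 853 CPM in Control (log2 -0.73 ± 0.17, adjusted p = 0.0120). Emb, which serves MCT2, averaged 12.2 CPM in TNF and 20.5 CPM in Control (adjusted p = 0.0124, and 0.00864 to 0.0565 over the repeats, losing its call without TNF library 1).

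Amino acid carriers were the largest class outside the mitochondria, with 29 members (median log2 fold change 0.22). Of these 11 (37.9%) rose and 5 (17.2%) fell, against 16.0% and 16.4% of all tested genes. Slc7a2 encodes CAT2, a carrier of arginine and other cationic amino acids. It had 569, 622 and 576 CPM in TNF and 86.6, 102 and 76.1 CPM in Control, which do not overlap (log2 2.74 ± 0.13, adjusted p = 1.55e-06). Slc7a1, the related constitutive carrier CAT1, had 51.3, 49.6 and 48.2 CPM in TNF and 39.9, 40.4 and 43.4 CPM in Control. The difference in Slc7a1 was small (log2 0.27 ± 0.07, adjusted p = 0.0242), and its call was lost without Control library 1 or TNF library 1 (adjusted p up to 0.113). On the TPM scale, which allows for length, Slc7a2 averaged 124 ± 4.08 TPM in TNF and 18.9 ± 1.88 TPM in Control, and Slc7a1 averaged 11.3 ± 1.05 TPM in TNF and 9.88 ± 0.917 TPM in Control (SD, n = 3 each).

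Of the 5 measured genes listed for the use of arginine, 3 rose, and Asl and Odc1 were not called. The share called higher over all tested genes was 16.0%. Nos2, the inducible nitric oxide synthase, had 444, 364 and 246 CPM in TNF and 0.118, 0.662 and 0.123 CPM in Control. Ass1, which remakes arginine from citrulline, had 301, 270 and 324 CPM in TNF and 62.2, 79.2 and 67.0 CPM in Control. Both stood far above Control in every TNF library. Arg2, the mitochondrial arginase, had 20, 22 and 20 counts in TNF and 3, 1 and 1 counts in Control, a depth-scaled ratio of 16.2 with an exact 95% interval of 6.59 to 51.7, which covers counting error only. Arg2 passed edgeR's filter on low counts through TNF libraries alone, so it had to differ. In single repeats Asl was called higher without TNF library 2 (adjusted p between 0.00946 and 0.404) and Odc1 lower without TNF library 3 (between 0.0205 and 0.154).

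Slc7a11 encodes xCT, the subunit that exchanges cystine for glutamate and so feeds glutathione synthesis. Because it met the TPM rule through TNF libraries alone, it had to differ between the groups. It had 42.0, 44.2 and 42.0 CPM in TNF and 2.20, 2.90 and 1.86 CPM in Control. The 3 TNF values were close to each other and far above Control (log2 4.19 ± 0.16, adjusted p = 5.15e-07). Its partner subunit Slc3a2 (CD98), shared with several other Slc7 carriers, was already abundant, with 258, 244 and 234 CPM in TNF and 200, 190 and 207 CPM in Control (log2 0.30 ± 0.09, adjusted p = 0.0284). That call was lost without Control library 1 or 3 or TNF library 1 or 2 (adjusted p up to 0.132). Of the 4 genes listed for glutathione synthesis, Nfe2l2, Gclm and Gss rose, by 0.75, 0.89 and 0.41 on the log2 scale, and Gclc was not called. The share called higher over all tested genes was 16.0%. The call of Gss was lost without Control library 1 or TNF library 1 (adjusted p up to 0.0564).

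The other higher calls among amino acid carriers were Slc6a9, the glycine transporter GlyT1 (26.4 CPM in TNF, 12.4 CPM in Control), Slc43a2, a carrier of large neutral amino acids (226 CPM in TNF, 122 CPM in Control), Slc16a10, a carrier of aromatic amino acids (16.8 CPM in TNF, 9.70 CPM in Control), Slc1a5, the glutamine carrier ASCT2 (20.4 CPM in TNF, 15.5 CPM in Control), and Slc7a6, Slc36a1 and Slc38a6. The largest falls were those of 2 glutamate carriers of the plasma membrane. Slc1a1 (EAAT3) had 2.03, 2.86 and 2.27 CPM in TNF and 7.29, 6.58 and 7.10 CPM in Control (log2 -1.56 ± 0.14). Slc1a3 (EAAT1) had 3.48, 2.58 and 2.69 CPM in TNF and 6.69, 6.83 and 6.99 CPM in Control (log2 -1.23 ± 0.14). Both were low in every TNF library. The other falls were Slc1a4, a carrier of alanine, serine and cysteine (93.4 CPM in TNF, 137 CPM in Control), Slc7a5, the leucine carrier LAT1 (27.6 CPM in TNF, 40.4 CPM in Control), and Slc6a6, the taurine carrier (269 CPM in TNF, 358 CPM in Control). Without TNF library 1 the number of higher calls in the class was 6, and without Control library 1 it was 7. In all, 6 of the 11 higher and 4 of the 5 lower calls were made in all 6 repeats. Slc7a6 and Slc6a6 lost theirs without TNF library 1 alone (adjusted p of up to 0.0531 and 0.0623), and Slc36a1 and Slc38a6 lost theirs without any 1 library other than Control library 2 (up to 0.149 and 0.123).

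Among 5 genes listed for the amino acid response, Atf4, the transcription factor of that response, rose (158 CPM in TNF, 120 CPM in Control, adjusted p = 0.00989, and 0.00730 to 0.0561 over the repeats, losing its call without TNF library 1). The other 4, Asns, Chac1, Ddit3 and Trib3, had log2 fold changes between 0.12 and 0.27 and were not called. The share called higher over all tested genes was 16.0%. In single repeats Asns was called without TNF library 2 (adjusted p between 0.0156 and 0.260) and Chac1 without TNF library 3 (between 0.0237 and 0.455).

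Promoter windows were read for the members with the largest rises, because the lists of other genes used here cover the amino acid response, glutathione synthesis and metal binding, whose known regulators bind short DNA motifs. The windows are the 250 bases before the RefSeq start, 5′ to 3′ on the gene's strand, build GRCm38.p6, and capitals mark matches on either strand to 4 motifs: the NF-kB consensus, the amino acid response core TGATGNAA, the antioxidant response core TGACNNNGC and the metal response core TGCACNC or TGCGCNC. The matches in capitals do not overlap each other. Of the 5 windows read for these genes, 2 held a match and 3, those of Slc2a6, Slc16a3 and Slc25a18, held none. Printed are both windows with a match, to show where it fell, and the window of Slc2a6. Slc7a11 lies at chr3:50443614-50443863 on the minus strand, Slc16a1 at chr3:104638414-104638663 on the plus strand and Slc2a6 at chr2:27027999-27028248 on the minus strand.
Slc7a11: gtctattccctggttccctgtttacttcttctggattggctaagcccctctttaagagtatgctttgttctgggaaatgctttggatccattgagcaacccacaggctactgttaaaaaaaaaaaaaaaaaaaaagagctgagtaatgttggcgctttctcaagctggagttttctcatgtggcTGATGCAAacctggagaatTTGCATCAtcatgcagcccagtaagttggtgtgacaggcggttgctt
Slc16a1: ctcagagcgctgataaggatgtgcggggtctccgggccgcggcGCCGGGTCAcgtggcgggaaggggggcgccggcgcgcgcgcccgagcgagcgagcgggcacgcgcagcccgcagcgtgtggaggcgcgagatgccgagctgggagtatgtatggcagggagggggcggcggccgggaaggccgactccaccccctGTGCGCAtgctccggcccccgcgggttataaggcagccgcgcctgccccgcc
Slc2a6: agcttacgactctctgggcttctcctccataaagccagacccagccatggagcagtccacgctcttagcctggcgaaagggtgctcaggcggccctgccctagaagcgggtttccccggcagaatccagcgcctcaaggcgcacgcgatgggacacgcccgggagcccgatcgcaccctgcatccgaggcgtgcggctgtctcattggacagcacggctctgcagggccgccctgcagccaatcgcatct
The window of Slc7a11 held 2 matches to the amino acid response core, on opposite strands and beginning 66 and 47 bases before the start. That of Slc16a1 held a match to the antioxidant core beginning 207 bases before the start and a match to the metal core beginning 52 bases before it. That of Slc2a6 held none of the 4, which says only that these letters are not in this window. No window was at hand for Slc7a2, Slc39a4, Slc39a14, Slc15a3 and Slc43a3.

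A window was found for 141 of the 184 members. The antioxidant core was present for 12 of 36 members called higher, 2 of 20 called lower and 14 of 85 not called, against 11.5% of all genes with a window. The metal core was present for 15 of 36, 4 of 20 and 29 of 85, against 23.8% of all genes. The NF-kB consensus was present for 4 of 36, 3 of 20 and 6 of 85, against 8.23%, and the amino acid response core for 1, 1 and 3, against 3.91%. A gene with more starts has more windows to hold a match: the mean number of windows per gene was 1.61 for members called higher, 1.10 for those called lower, 1.26 for those not called and 1.22 for all genes. The median GC content of the windows was 60.0%, 60.6% and 62.0% for these groups of members and 52.4% for all genes. The part of window number and GC content in the shares was not tested, and a match is a description and not a binding site.

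Zinc carriers are split between the Slc39 (ZIP) family, which brings zinc into the cytosol, and the Slc30 (ZnT) family, which takes it out. Of the 17 members 5 (29.4%) rose, and 0 fell in edgeR, in DESeq2, in limma-voom or at an unadjusted p under 0.05. Of all tested genes 16.0% were called higher and 16.4% lower in edgeR. The class median was 0.12, and 15 of the 17 log2 fold changes were above 0. The absence of falls holds for members only and depends on the TPM rule. Below that rule the zinc carriers Slc30a3 and Slc39a12 were called lower, as given under the other observations. Slc39a12 passed edgeR's filter on low counts through Control libraries alone, so it had to differ. Slc30a3 averaged 0.184 CPM in TNF and 1.34 CPM in Control, and it lay close outside the rule, with 0.885 TPM as its third-highest value. The largest rise was in Slc39a4 (ZIP4), known as the zinc importer of the gut. Because it met the TPM rule through TNF libraries alone, it had to differ between the groups. It had 12, 10.5 and 12.3 CPM in TNF and 0.689, 0.807 and 0.457 CPM in Control (log2 4.13 ± 0.19, adjusted p = 1.14e-06). Slc39a14 (ZIP14), which carries zinc, iron and manganese and is known to be raised in the liver in inflammation, was at a higher level, with 172, 171 and 160 CPM in TNF and 59.6, 61.5 and 57.5 CPM in Control. Neither gene's groups overlapped, and the log2 fold change of Slc39a14 was 1.49 ± 0.08 (adjusted p = 2.73e-06).

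Slc39a8 (ZIP8), the nearest relative of ZIP14, had 9.89, 8.53 and 8.04 CPM in TNF and 4.77, 5.93 and 4.76 CPM in Control (log2 0.77 ± 0.13, adjusted p = 0.00212). On the export side, Slc30a4 (ZnT4, of endosomes) averaged 153 CPM in TNF and 103 CPM in Control, and Slc30a6 (ZnT6, of the Golgi) averaged 37.6 CPM in TNF and 26.1 CPM in Control. The call of Slc30a6 was lost without TNF library 1 or 2 (adjusted p up to 0.101). Slc30a1, the exporter at the cell surface, had 8.20, 9.88 and 10.7 CPM in TNF and 7.70, 12 and 7.31 CPM in Control, with overlapping groups (log2 0.09 ± 0.20, adjusted p = 0.746).

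The zinc carriers that were not called included the most abundant one. Slc39a7, which releases zinc from the endoplasmic reticulum and the Golgi, averaged 215 TPM, with 239, 186 and 307 CPM in TNF and 223, 250 and 230 CPM in Control. Slc39a1 had 175, 202 and 146 CPM in TNF and 104, 174 and 120 CPM in Control, and it was called without Control library 2 (adjusted p between 0.00878 and 0.382 over the repeats without 1 library) and without both libraries numbered 2. Slc39a13 was called without Control library 3 (between 0.0479 and 0.235), without both libraries numbered 2 and with DESeq2. The log2 fold changes of the other 8, Slc30a5, Slc30a7, Slc30a9, Slc39a3, Slc39a6, Slc39a9, Slc39a10 and Slc39a11, lay between -0.03 and 0.21.

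All 4 measured genes listed for zinc and copper binding rose, against 16.0% of all tested genes called higher. The listed Mt3 and Atp7b were not measured, and the list was chosen with earlier results of these data known. Mt2, a metallothionein, which binds zinc and copper in the cytosol, had 224, 209 and 219 CPM in TNF and 2.99, 2.58 and 2.81 CPM in Control (log2 6.28 ± 0.11). Mt1 had 92.7, 89.8 and 105 CPM in TNF and 19.8, 22.1 and 22.7 CPM in Control (log2 2.16 ± 0.10). Atp7a, a copper pump, and Mtf1, the zinc-sensing transcription factor, rose by 0.65 and 0.59 on the log2 scale. The call of Mtf1 was lost without Control library 2 or TNF library 1 or 2 (adjusted p up to 0.0862).

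**Figure D3:**
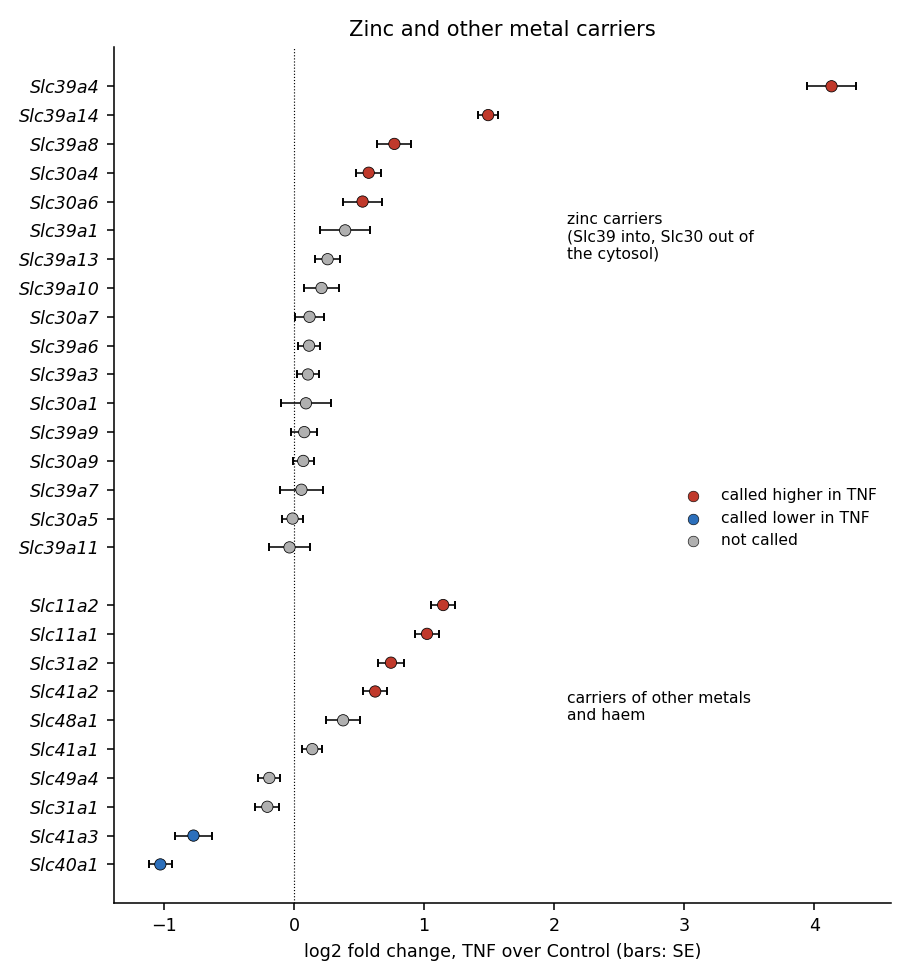
Log2 fold change, TNF over Control, of the 17 zinc carriers (above) and the 10 carriers of other metals and haem (below), with bars for the SE; red points were called higher, blue points lower and grey points not called. The zinc carriers run from -0.03 for Slc39a11 to 4.13 for Slc39a4, and the other metals from -1.03 for Slc40a1 to 1.15 for Slc11a2.

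Carriers of other metals numbered 10 (median 0.26), of which 4 (40%) rose and 2 (20%) fell, against 16.0% and 16.4% of all tested genes. Each of these 6 calls was made in all 6 repeats. Slc11a2 encodes DMT1, which brings ferrous iron into the cytosol with protons. It had 133, 115 and 125 CPM in TNF and 55.1, 60.4 and 53.0 CPM in Control (log2 1.15 ± 0.09, adjusted p = 2.78e-05). Slc40a1 encodes ferroportin, the known iron exporter of the cell surface, and had 38.5, 41.6 and 35.4 CPM in TNF and 79.9, 80.9 and 74.4 CPM in Control (log2 -1.03 ± 0.09, adjusted p = 4.44e-05). The groups did not overlap for either gene, the importer being higher and the exporter lower in every TNF library. Macrophage markers, of which 3 rose and 6 fell, stand beside both differences, and their part in them was not tested.

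Slc11a1 encodes NRAMP1, a metal carrier of the phagosome known from macrophages. It had 126, 108 and 122 CPM in TNF and 57.4, 63.5 and 54.6 CPM in Control (log2 1.02 ± 0.10, adjusted p = 7.19e-05). Of the 12 macrophage markers 3 rose and 6 fell between the same groups, with Cybb at 383, 443 and 356 CPM in TNF and 79.7, 102 and 65.0 CPM in Control, and C1qa at 67.1, 54.6 and 68.9 CPM in TNF and 117, 189 and 128 CPM in Control. The part of these cells in the rise of Slc11a1 was not tested. The other 2 rises were Slc31a2, related to the copper importer (33.7 CPM in TNF, 20.1 CPM in Control), and Slc41a2, a magnesium carrier (54.8 CPM in TNF, 35.6 CPM in Control), and the other fall was Slc41a3, of the same family (22.6 CPM in TNF, 38.7 CPM in Control).

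Slc48a1, the haem transporter and the most abundant of the 10, had 386, 331 and 432 CPM in TNF and 266, 335 and 284 CPM in Control. The groups overlapped (log2 0.38 ± 0.13, adjusted p = 0.0588), and the gene was called without Control library 2 or TNF library 2 (between 0.0189 and 0.185 over the repeats). Of the 6 genes listed for iron handling, Steap4 and Hmox1 rose, Steap3 and Ftl1 fell, and Tfrc and Fth1 were not called. The shares over all tested genes were 16.0% higher and 16.4% lower. Hmox1, which breaks down haem, averaged 784 CPM in TNF and 481 CPM in Control. Ftl1, the ferritin light chain, averaged 2901 CPM in TNF and 4692 CPM in Control, and its call was lost without Control library 1 or TNF library 1 or 2 (adjusted p up to 0.117). Tfrc, the transferrin receptor, averaged 31.4 CPM in TNF and 31.7 CPM in Control.

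The carriers of inorganic ions numbered 27 (median 0.09), of which 7 (25.9%) rose and 5 (18.5%) fell, against 16.0% and 16.4% of all tested genes. Both phosphate importers of the Slc20 family rose. Slc20a2 (Pit2) had 59.8, 59.8 and 59.1 CPM in TNF and 35.01, 31.9 and 34.6 CPM in Control, and Slc20a1 (Pit1) had 65.3, 69.1 and 66.3 CPM in TNF and 44.6, 40.04 and 41.7 CPM in Control. Neither overlapped, with log2 fold changes of 0.82 ± 0.07 for Slc20a2 (adjusted p = 6.29e-05) and 0.67 ± 0.08 for Slc20a1 (adjusted p = 0.000252).

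Slc9a9 encodes NHE9, a sodium-proton exchanger of endosomes, and showed the largest fall of the class. It had 16.6, 14.8 and 15.8 CPM in TNF and 50.7, 56.0 and 49.4 CPM in Control (log2 -1.72 ± 0.09, adjusted p = 2.24e-06). Slc9a7, the related exchanger NHE7 of the Golgi, fell as well (1.75 CPM in TNF, 2.99 CPM in Control). The calcium exchangers moved both ways. Slc8a1 (NCX1) averaged 36.0 CPM in TNF and 20.2 CPM in Control. Slc8a3 (NCX3) had 2.31, 2.78 and 1.62 CPM in TNF and 6.43, 4.33 and 6.92 CPM in Control. Slc8a3 met the TPM rule through Control libraries alone, so it had to differ. Slc24a3, a potassium-dependent calcium exchanger and the most abundant member of the class at 120 TPM, had 217, 186 and 216 CPM in TNF and 300, 252 and 297 CPM in Control (log2 -0.46 ± 0.11, adjusted p = 0.0128, and 0.00344 to 0.0543 over the repeats, losing its call without Control library 1).

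The other higher calls were Slc12a1, a sodium-potassium-chloride carrier known from the kidney (2.82 CPM in TNF, 1.53 CPM in Control), the bicarbonate carriers Slc4a4 (8.30 CPM in TNF, 6.02 CPM in Control) and Slc4a7 (43.0 CPM in TNF, 34.1 CPM in Control), and the anion exchanger Slc26a6 (5.81 CPM in TNF, 4.28 CPM in Control). The remaining fall was Slc26a11, another anion carrier (5.51 CPM in TNF, 8.59 CPM in Control). The number of higher calls was 4 without Control library 1, and the number of lower calls was 3 without Control library 1 or TNF library 1. Of the calls, 4 higher and 2 lower were made in all 6 repeats. Slc4a4, Slc4a7, Slc26a6, Slc26a11 and Slc9a7 lost theirs in at least 1 repeat, with adjusted p of up to 0.109, 0.119, 0.119, 0.0662 and 0.0662.

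The mitochondrial carriers (Slc25) were the largest class, with 39 members and 33.7% of the members' summed TPM. Of these 8 (20.5%) rose and 3 (7.69%) fell, against 16.0% and 16.4% of all tested genes, and the class median was -0.01. Slc25a18, a glutamate carrier, was all but absent in Control, with 70, 64 and 76 counts in TNF and 2, 0 and 2 counts in Control. The depth-scaled ratio was 68.7 with an exact 95% interval of 26.4 to 254, at a level of 1.34 ± 0.052 TPM in TNF. Having met the TPM rule through TNF libraries alone, Slc25a18 had to differ. The other glutamate carrier, Slc25a22, had 14.8, 16.2 and 14.9 CPM in TNF and 8.64, 9.49 and 8.63 CPM in Control (log2 0.78 ± 0.09, adjusted p = 0.000225).

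Slc25a25, which exchanges ATP-magnesium for phosphate, had 20.3, 17.8 and 17.3 CPM in TNF and 11.1, 9.63 and 9.39 CPM in Control (log2 0.88 ± 0.11, adjusted p = 0.000301). Both mitoferrins, which carry iron into the mitochondrion, rose, with Slc25a37 at 45.6 CPM in TNF and 26.8 CPM in Control and Slc25a28 at 29.1 CPM in TNF and 18.8 CPM in Control. The other rises were Slc25a33, a pyrimidine nucleotide carrier (6.91 CPM in TNF, 4.04 CPM in Control), Slc25a51, the NAD carrier (45.2 CPM in TNF, 36.7 CPM in Control), and Slc25a35 (6.61 CPM in TNF, 5.18 CPM in Control). The falls were Slc25a13, an aspartate-glutamate carrier (13.1 CPM in TNF, 18 CPM in Control), Slc25a42, a coenzyme A carrier (5.45 CPM in TNF, 7.19 CPM in Control), and Slc25a12, the other aspartate-glutamate carrier (50.04 CPM in TNF, 59.3 CPM in Control). The call of Slc25a12 (adjusted p = 0.0362) was lost in each of the 6 repeats without 1 library (0.0612 to 0.120). The most abundant carrier, Slc25a5, had 340, 318 and 368 CPM in TNF and 296, 281 and 307 CPM in Control, which do not overlap but were not called (log2 0.21 ± 0.10, adjusted p = 0.123). The number of lower calls was 1 without Control library 1 or TNF library 1, and 6 of the higher calls and 1 of the lower calls, that of Slc25a13, were made in all 6 repeats. Slc25a35 lost its call in 4 repeats, Slc25a51 in 5 and Slc25a42 in 3, with adjusted p of up to 0.118, 0.134 and 0.0546.

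**Figure D4:**
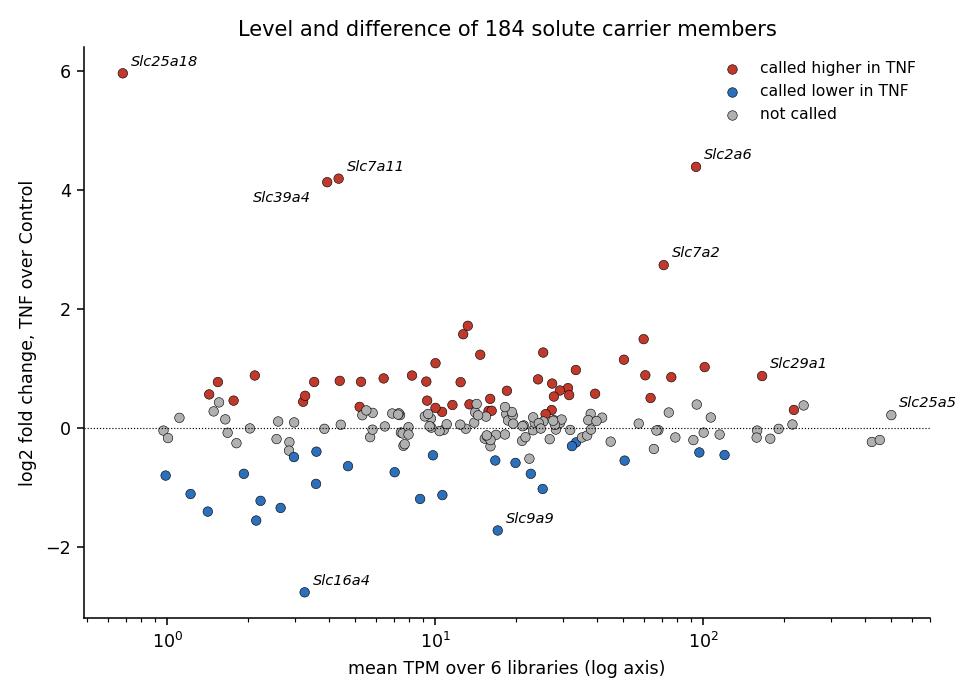
Log2 fold change, TNF over Control, against the mean TPM over 6 libraries (log axis) for the 184 members; red points were called higher, blue points lower and grey points not called. The mean pools groups that differ: Slc2a6 averaged 179 TPM in TNF and 9.15 TPM in Control, Slc7a11 8.28 TPM in TNF and 0.443 TPM in Control, and Slc39a4 7.41 TPM in TNF and 0.499 TPM in Control.

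The 5 carriers of nucleosides and nucleobases held 2 rises (40%) and 0 falls in edgeR, against 16.0% and 16.4% of all tested genes. In this class 0 were lower at an unadjusted p under 0.05 and 0 lower in DESeq2 or limma-voom. Slc29a1 (ENT1), the main equilibrative carrier of adenosine and other nucleosides at the cell surface, had 227, 208 and 244 CPM in TNF and 121, 128 and 122 CPM in Control (log2 0.87 ± 0.09, adjusted p = 0.000133). Slc43a3, a purine nucleobase carrier, had 23.5, 22.7 and 23.5 CPM in TNF and 9.49, 9.68 and 10.5 CPM in Control (log2 1.23 ± 0.08, adjusted p = 1.19e-05). Both were clear of Control in every TNF library. Slc29a2, Slc29a3 and Slc29a4 had log2 fold changes of 0.43, -0.03 and -0.05 and were not called. Of 6 genes for nucleoside breakdown and salvage, Upp1, uridine phosphorylase, and Pnp, purine nucleoside phosphorylase, rose (8.77 and 158 CPM in TNF, 1.65 and 91.8 CPM in Control). Tk1, thymidine kinase, and Adk, adenosine kinase, fell (6.35 and 40.5 CPM in TNF, 13.8 and 63.6 CPM in Control), and Ada and Dck were not called.

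The classes given from here on are small, and over all tested genes 16.0% were called higher and 16.4% lower. The shares called higher and lower were 50% and 0% for peptides, and 12.5% and 25% for vitamins. They were 28.6% and 14.3% for lipids, choline and acetyl-CoA, and 10% and 20% for organic ions and vesicular transmitters. For the genes that are not transporters they were 0% and 25%. Of the 2 peptide carriers, Slc15a3, a peptide and histidine carrier of lysosomes in immune cells, had 73.7, 56.9 and 73.9 CPM in TNF and 27.9, 29.4 and 27.7 CPM in Control (log2 1.27 ± 0.11, adjusted p = 5.16e-05), and Slc15a4 was not called (29.8 CPM in TNF, 26.3 CPM in Control). The macrophage markers given above stand beside this rise too, and their part in it was not tested.

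Among the 8 vitamin carriers, Slc52a3, a riboflavin carrier, fell to 7.88, 8.58 and 7.72 CPM in TNF, against 17.5, 17.6 and 20.1 CPM in Control (log2 -1.19 ± 0.10, adjusted p = 3.16e-05). Slc46a3, a lysosomal carrier, averaged 2.81 CPM in TNF and 5.39 CPM in Control (adjusted p = 0.00139). Slc19a2, the thiamine carrier THTR1, rose to 57.7 CPM in TNF, against 49.1 CPM in Control (adjusted p = 0.0390). The call of Slc19a2 was lost without any 1 library other than Control library 2 (adjusted p between 0.0322 and 0.146 over the repeats). The class then held 0 higher calls, except without TNF library 2, where Slc46a1 was called (between 0.0173 and 0.235).

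Among the 7 carriers of lipids, choline and acetyl-CoA, Slc44a1, a choline carrier, averaged 80.0 CPM in TNF and 54.5 CPM in Control, and Slc10a3 averaged 82.2 CPM in TNF and 58.1 CPM in Control. Slc27a3, an acyl-CoA synthetase of the fatty acid transport family, had 1.79, 1.48 and 1.88 CPM in TNF and 4.18, 4.05 and 4.96 CPM in Control (log2 -1.35 ± 0.15, adjusted p = 0.000213). Its groups did not overlap. The number of higher calls was 1 without TNF library 1 or 2, where Slc10a3 was lost (adjusted p up to 0.0933).

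Of the 10 carriers of organic ions and vesicular transmitters, Slc22a23, an orphan, rose (14.1 CPM in TNF, 9.73 CPM in Control). Slc22a2, the organic cation carrier OCT2, fell to 0.975, 1.05 and 0.785 CPM in TNF, against 1.88, 1.71 and 2.46 CPM in Control (log2 -1.11 ± 0.22, adjusted p = 0.00449). Because Slc22a2 met the TPM rule through Control libraries alone, it had to differ. Slc22a17, a lipocalin-2 receptor, had 6.05, 6.03 and 9.29 CPM in TNF and 12.2, 13.9 and 9.82 CPM in Control, where TNF library 3 lay close to the lowest Control value (adjusted p = 0.0183). Its call was lost without TNF library 1 or 2 (adjusted p up to 0.0785), which left 1 lower call, and without Control library 2 the class held 2 higher calls.

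Of the Slc35 family, which is known for nucleotide sugar carriers of the Golgi, the symbol rule takes only the Slc35a genes. Slc35 genes with another letter in the symbol were not covered. The 5 Slc35a members gave 0 calls in edgeR, in DESeq2 and in limma-voom, and 0 at an unadjusted p under 0.05. Their log2 fold changes lay between -0.16 and 0.23. Slc35a3 was called higher without Control library 2 (adjusted p between 0.0264 and 0.350 over the repeats). The symbol rule also took in 4 genes whose products are not transporters. Of these Slc9a3r2, a scaffold protein that binds the exchanger NHE3, fell (18.3 CPM in TNF, 27.5 CPM in Control, adjusted p = 0.00308), and Slc9a3r1, Slc4a1ap and Slc7a6os were not called. Slc9a3r1 was called higher without Control library 2 (between 0.0193 and 0.308).

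**Figure D5:**
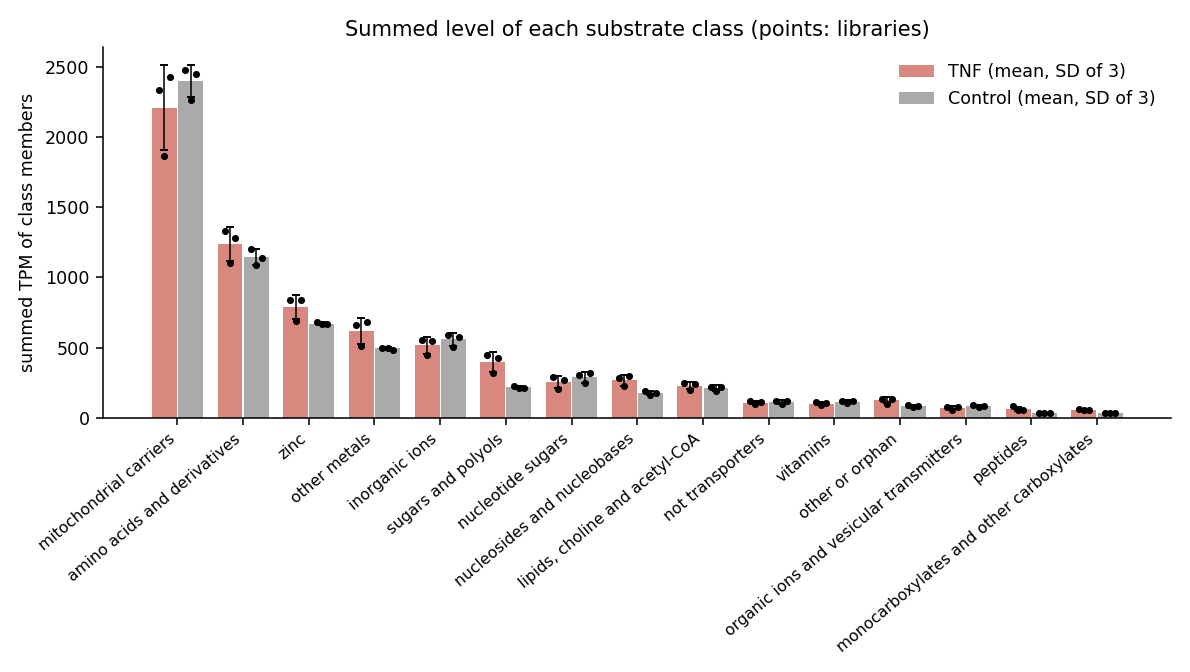
Summed TPM of the members of each substrate class, with bars for the mean and SD of 3 libraries (TNF left, Control right) and points for libraries, in order of level. Mitochondrial carriers hold the most, at 2209 ± 301 TPM in TNF and 2396 ± 116 TPM in Control, and TNF library 2 is the lowest TNF library in every class, at 5994 TPM over all members.

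The summed TPM of all members was 7036 ± 903 in TNF and 6612 ± 330 in Control. In 7 of the 15 classes the sum was higher in every TNF library than in any Control library, and these were sugars, carboxylates, nucleosides, peptides, zinc, other metals and the orphan class. In the other 8 the libraries of the groups overlapped. The carboxylate carriers summed to 56.5 ± 4.64 TPM in TNF and 32.4 ± 1.67 TPM in Control, and the nucleoside carriers to 268 ± 39.5 TPM in TNF and 175 ± 13.6 TPM in Control. Within groups the members varied little, with a median SD of log2 CPM of 0.11 in TNF and 0.13 in Control.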

How the data were processed

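Per the submitters' processing notes, the reads were processed with Trim Galore, STAR, StringTie and Salmon on genome build GRCm39, with no versions given. The authors deposited estimated counts per gene, as whole numbers, in 1 file per library, and TPM values in another. The title line of the deposited count files calls the values normalized and the column name calls them raw. Totals differed between libraries, so they were used as counts. The rows of the 2 files of a library were matched by their position: 260 of 260 zeros fell in the same place. Depth ranged from 45629973 to 77142418 counts per library.

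Counts were fitted in R 4.3.3 with edgeR 4.0.16 (filterByExpr, TMM factors, glmQLFit, glmQLFTest, group as the only term, two-sided), with Benjamini-Hochberg adjustment over all 15547 tested genes and calls at adjusted p under 0.05. The procedure was tested on simulated data. The biological coefficient of variation was 0.132. The SE is the absolute log2 fold change over the square root of F and is approximate. For genes with few counts in 1 group, a ratio of the summed counts stands in for the fitted fold, with an exact interval for counting error, which PCR duplicates make too narrow. Members were sorted into 15 classes by family, with known exceptions. Promoters came from RefSeq (GRCm38.p6), and no other coordinates are given, since no annotation of the authors' build was used. The counting strand and the handling of reads that match several genes are not given in the sources used here, so overlapping or antisense genes and near-identical copies cannot be told apart.

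The members, classes and lists of other genes were chosen with earlier results of these data known. Named were the most abundant and up to 3 best-supported called members of each class, the 10 largest rises and falls, the members of classes of 5 or fewer, the zinc carriers, the CAT carriers, the listed other genes and the members nearest the TPM rule. A few genes that this rule takes in are not reported here. Other called members were named after their values were seen, to spell out small counts. Alternatives were RLE factors, library totals, DESeq2 1.42.0, limma-voom and limma 3.58.1 on log2 TPM plus 1 or 0.1, other filters, a threshold of 0.01, the replicate number as a block, libraries left out and other TPM rules.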

Additional observations from a re-analysis of the deposited data

How the results depend on the processing

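No call of a member changed direction under any alternative tried. The number of members called higher (51) ran from 37 to 55 and the number called lower (26) from 18 to 24 when 1 library was left out, and without both libraries numbered 2 they were 61 and 23. Across every alternative fit, 31 higher and 17 lower calls held. With library totals, or with limma on log2 TPM plus 1 or plus 0.1, the counts were 36 and 26, and with DESeq2 they were 55 and 30. At an adjusted p under 0.01 they were 34 and 17, and with a rule of at least 5 TPM they were 43 and 15, since these settings leave fewer calls or fewer members. Deviations from the group means correlated at -0.01, -0.30 and -0.22 between same-numbered libraries. Such values can also reflect library quality, so they do not tell whether the replicate numbers pair the libraries. With the replicate block the counts were 40 and 22. By class, the 11 higher calls of amino acid carriers were 6 with library totals, 7 with limma on log2 TPM, 7 with the replicate block and 6 at 0.01. The 7 higher calls of ion carriers were 4 with library totals, limma on log2 TPM, the replicate block or 0.01, and their 5 lower calls were 2 at 0.01. The mitochondrial calls (8 and 3) were 5 higher with limma on log2 TPM plus 1 or at 0.01, and 5 lower with DESeq2 and 1 lower at 0.01. The carboxylate calls (5 and 2) were 3 higher with limma on log2 TPM, the replicate block or 0.01, and 1 lower with limma-voom, the replicate block, 0.01 or without both libraries numbered 2. Lipid carriers (2 higher) had 1 with library totals, limma on log2 TPM or 0.01. Organic ion carriers (1 and 2) had 0 higher with limma on log2 TPM plus 0.1, 2 higher without both libraries numbered 2 and 1 lower at 0.01. Vitamin carriers (1 higher) had 2 with DESeq2, 3 without both libraries numbered 2 and 0 with library totals, limma on log2 TPM or 0.01. Peptide carriers (1 higher) had 2 with limma on log2 TPM, and without both libraries numbered 2 nucleotide sugar carriers and the genes that are not transporters (0 higher) had 1 each. The cause of these shifts was not tested. Groups of 3 libraries limit which small differences can be called.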

Other observations

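Of the 34 protein-coding Slc genes below the TPM rule, 6 were called higher, 11 lower and 13 not called in edgeR, and 4 were not tested. Over all tested genes 16.0% were called higher and 16.4% lower. Most of the 34 rested on few counts. Slc6a19, a neutral amino acid carrier known from gut and kidney, had 80, 88 and 76 counts in TNF and 2, 4 and 1 counts in Control, a depth-scaled ratio of 45.6 with an exact 95% interval of 21.8 to 115. Slc10a6, a carrier of sulfated steroids, had 22, 14 and 26 counts in TNF and 4, 2 and 1 counts in Control, a ratio of 11.6 (5.30 to 30.01). The other higher calls were Slc6a4, the serotonin carrier (1.46 CPM in TNF, 0.238 CPM in Control), Slc19a3, a thiamine carrier (0.591 CPM in TNF, 0.0971 CPM in Control), Slc12a5, a potassium-chloride carrier of neurons (1.98 CPM in TNF, 0.573 CPM in Control), and Slc1a2, a glutamate carrier known from astrocytes (1.32 CPM in TNF, 0.481 CPM in Control). Slc6a19, Slc10a6 and Slc19a3 passed edgeR's filter on low counts through TNF libraries alone, so they had to differ.

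Among the lower calls, 2 zinc carriers moved the other way from the called zinc carriers above the rule. Slc30a3 averaged 0.184 CPM in TNF and 1.34 CPM in Control, and Slc39a12 had 5, 0 and 2 counts in TNF and 22, 42 and 28 counts in Control, a ratio of TNF over Control of 0.0995 (0.0389 to 0.213). Slc22a14, with 2, 0 and 2 counts in TNF and 25, 47 and 32 counts in Control, had a ratio of 0.0503 (0.0135 to 0.133). Slc39a12 and Slc22a14 passed edgeR's filter on low counts through Control libraries alone, so both had to differ.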
